A study of Mus musculus with 94 samples.

Results

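The genes described here are 9 genes of myelin and of the oligodendrocyte, the cell that makes myelin in brain: Mbp, Mobp, Mog, Mag, Mal, Cldn11, Ugt8a, Sox10 and Olig2. Every probe whose platform gene symbol is one of these names was taken. That gave 14 of 25697 probes, for 8 of 9 genes out of 16593 gene symbols on the array. Mbp and Mobp had 3 probes each, Mog and Mal 2 each, and Mag, Cldn11, Ugt8a and Olig2 1 each. The platform table gave 0 probes for Sox10, so it has no value here. The RNA came from 24 male mice of strain C57BL/6N that were 17 weeks old, and 4 organs were put on Illumina arrays, namely thymus, spleen, liver and brain. The mice came from 3 lines, each with homozygous mutants of Hmgn1, Hmgn3 or Hmgn5 and wild types, which gave 94 arrays. A group had 4 arrays, and in liver the wild types of the Hmgn1 and of the Hmgn5 line had 3. The labels do not say how the alleles were made. The question of the series was how mutants of these chromatin proteins differ from wild types.

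Myelin is the stack of membrane that oligodendrocytes wrap around axons. Its structural proteins hold the membrane layers together, its lipids include galactosylceramide, and the transcription factors Olig2 and Sox10 set the lineage and switch on myelin genes. The sample titles say brain and name no region. Fewer oligodendrocytes, less RNA per oligodendrocyte and a different share of brain regions cannot be told apart in these values.

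Levels below are intensities as the authors normalized them, with the SD over arrays after the ± sign. A change is the mean log2(intensity + 16) of labelled mutants less that of the wild types of the line, and SE is its standard error. The SE, interval and p of a probe use its spread pooled over all groups of the main fit, not that of a line alone. For dim probes the added 16 makes a change look smaller than it is. A probe was above noise on an array when its value exceeded 1.64 times the root mean square of the negative values of that array, which was 5.77 to 8.56 in brain. In brain, 13 of 14 probes were above noise on all 24 arrays, and 15932 to 16422 of all probes were above noise on an array. The number of arrays limited the precision. Of the targeted genes in brain, the Hmgn3 probes fell by 0.55 and 0.56 in the labelled Hmgn3 mutants (limma adjusted p = 0.0175 and 0.00442). The Hmgn1 probe changed by -0.23 in its line (adjusted p = 0.824) and the Hmgn5 probe by 0.39 in its line (adjusted p = 0.64), neither past the threshold, so the arrays of those lines are called labelled mutants. The fourth brain array of the labelled Hmgn3 mutants stood apart. The SD of its deviations from its group mean over all probes was 0.45 on the log2 scale, against 0.16 to 0.29 on the other brain arrays. Its mean over 5 cerebellar genes was 7.90 on the log2 scale, against 9.41 to 10.22 on the other brain arrays. Its intensities at Actb probes ILMN_2588055 and ILMN_2846865 were 3030 and 3426, against 158 to 699 and 226 to 820 on the other 7 brain arrays of the line. The other 3 Actb probes had 12508, 5630 and 782, against 5188 to 8813, 3816 to 5142 and 775 to 1404. The part of these differences in the member values was not tested. Member changes in the Hmgn3 line, and correlations that this array moves, are given with and without it. The array also enters the pooled spread in brain, and so the SE and p of the other lines.

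The windows upstream of the members are shown because these genes share their tissue. RefSeq, on build GRCm38.p6, gave 300 bases around a start site, from 250 before to 50 after it. The search of member windows left out 1 chromosome, which the windows of all genes did not. That gave 7 member genes, with neither Mbp nor Sox10 among them, and 3 of the 7 are printed. Capitals mark ACAAAG or its other strand CTTTGT, the core bound by SOX factors, and both strands were searched.
Mobp, chr9:120149492-120149791, plus strand: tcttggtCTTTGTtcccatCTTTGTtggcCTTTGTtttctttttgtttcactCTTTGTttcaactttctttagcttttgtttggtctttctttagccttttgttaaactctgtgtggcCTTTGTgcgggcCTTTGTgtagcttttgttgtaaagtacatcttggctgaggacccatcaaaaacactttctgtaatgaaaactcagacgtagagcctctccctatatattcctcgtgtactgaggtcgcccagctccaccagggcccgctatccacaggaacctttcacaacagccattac
Mag, chr7:30914814-30915113, minus strand: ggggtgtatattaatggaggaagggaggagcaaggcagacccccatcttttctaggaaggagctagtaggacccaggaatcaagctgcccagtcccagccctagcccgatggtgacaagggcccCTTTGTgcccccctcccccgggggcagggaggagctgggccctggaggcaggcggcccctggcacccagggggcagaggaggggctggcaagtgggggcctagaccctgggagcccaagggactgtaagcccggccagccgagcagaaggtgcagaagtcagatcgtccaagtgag
Cldn11, chr3:31149670-31149969, plus strand: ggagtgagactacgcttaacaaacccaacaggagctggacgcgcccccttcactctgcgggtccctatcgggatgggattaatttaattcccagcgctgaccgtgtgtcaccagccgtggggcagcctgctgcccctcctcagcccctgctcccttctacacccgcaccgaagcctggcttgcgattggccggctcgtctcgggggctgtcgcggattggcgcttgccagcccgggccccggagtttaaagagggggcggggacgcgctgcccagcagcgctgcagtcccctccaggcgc
The core stood 6 times in the Mobp window. At least 6 copies were found in 1 of 32851 windows of the same length, the Mobp window itself, while 18.7% of all windows held the core at all. Mag had 1 copy in this window, and the windows of Mog, Mal, Cldn11, Ugt8a and Olig2 had 0. CAGCTG, a form of the E-box bound by basic helix-loop-helix factors such as Olig2, was in 0 of 7 member genes and in 16.3% of all windows. GC content ran from 43.3% in the Mobp window to 78.3% in the Ugt8a window, against a median of 52.7% over all windows. The Ugt8a window held 40 CpG sites, Olig2 25 and Cldn11 24, against a median of 7. A match to these letters is a description and does not show binding.

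Most member probes were bright in wild-type brain and near the noise elsewhere. All arrays were quantile-normalized together for this comparison, because the deposited values were normalized apart for each line and tissue. The noise limit was taken anew on this joint scale, where it was 5.32, and counts of wild-type arrays above noise refer to it. In a limma fit with the mouse as a random block, 14 of 14 probes were higher in brain than in liver, where 28.6% of all tested probes were higher in brain. Against spleen and thymus, 13 of 14 were higher in brain, with 29.4% and 28.1% of all probes. The plot of wild-type tissues shows each array.

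**Figure D1:**
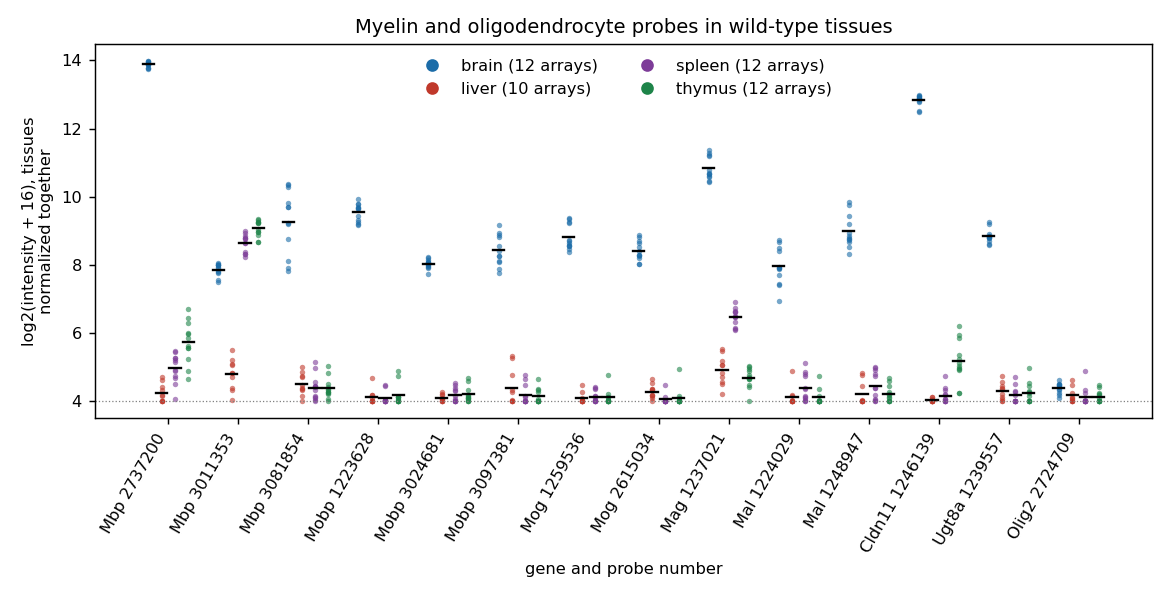
Log2(intensity + 16) of the 14 probes in wild-type brain, liver, spleen and thymus after joint normalization. Points are arrays, black bars are means, and the dotted line at 4 is an intensity of 0. Brain stands above the other tissues for 12 of the 14 probes. Olig2 overlaps between tissues, and Mbp probe ILMN_3011353 is lower in brain than in spleen and thymus here but higher with the values as deposited.

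Among the structural proteins, Mbp encodes the basic protein that binds the inner membrane faces of compact myelin. Mbp probe ILMN_2737200 had 15207 ± 867 in 12 wild-type brain arrays on the joint scale. Its lowest brain array was at 13776 and its highest array in thymus at 87.4, so the tissues did not overlap. The same probe was above noise in 12 of 12 wild-type thymus arrays (41.3 ± 23.3), 11 of 12 spleen arrays (16.4 ± 8.58) and 3 of 10 liver arrays (2.29 ± 4.71). Brain minus thymus was 8.16 (SE 0.147) on the log2 scale. Mbp probe ILMN_3081854 had 718 ± 408 in brain and was above noise in 4 of 12 thymus, 5 of 12 spleen and 5 of 10 liver arrays.

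The third Mbp probe, ILMN_3011353, had a different tissue pattern. On the joint scale it had 218 ± 27.5 in brain, 387 ± 70.9 in spleen, 527 ± 88.7 in thymus and 12.9 ± 8.64 in liver. All 12 spleen and all 12 thymus arrays lay above noise and above every wild-type brain array, of which the highest was 250.01. Brain minus spleen was -0.77 (SE 0.0717) and brain minus thymus -1.21 (SE 0.0717) on this scale, but with the values as deposited both turned to 1.61 and 0.63. The median of all probes was itself shifted by 0.79 for spleen and 0.57 for thymus with the deposited values, and relative to that median the probe stood at 0.82 and 0.07. The order of brain, spleen and thymus for this probe therefore rests on the scaling. What did not depend on it was that the probe was above noise on all 24 spleen and all 24 thymus arrays, with 77.2 to 222 in spleen and 127 to 498 in thymus as deposited. The Mbp locus is known to give, beside the myelin transcripts, longer transcripts called golli that are made in thymus and other immune tissue. The platform table pairs both ILMN_3011353 and ILMN_3081854 with 1 transcript record and ILMN_2737200 with another, and the position of the probes was not used here.

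Mobp encodes a small basic protein of compact myelin. Its probe ILMN_1223628 had 741 ± 132 in wild-type brain and was above noise in 1 of 10 liver, 2 of 12 spleen and 2 of 12 thymus arrays, with brain minus the other tissues between 5.38 and 5.46. Probe ILMN_3024681 had 247 ± 23.4 in brain and was above noise in 0 of 10 liver arrays, which makes brain at least 46.2-fold higher (joint fit, adjusted p = 1.80e-48). Such a bound sets each dim array at the noise limit of the array or its own value, whichever is higher. The last Mobp probe, ILMN_3097381, had 343 ± 113 in brain and was above noise in 3 of 10 liver, 3 of 12 spleen and 1 of 12 thymus arrays. Mog, the glycoprotein on the outer face of the myelin sheath and a known autoantigen, had 449 ± 126 and 333 ± 71.1 at its probes ILMN_1259536 and ILMN_2615034 in brain. Both Mog probes were above noise on at most 2 wild-type arrays of any other tissue, with brain minus the other tissues between 4.15 and 4.74.

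Mag encodes an adhesion protein of the innermost membrane, facing the axon. It had 1851 ± 460 in wild-type brain, 73.7 ± 15.8 in spleen, 15.3 ± 9.16 in liver and 10.04 ± 4.80 in thymus. It was above noise on 12 of 12 wild-type spleen arrays, which ran from 52.2 to 104, and on all 24 spleen arrays of the deposited table. On the joint scale Mag was also above noise on 9 of 10 wild-type liver and 10 of 12 wild-type thymus arrays. As deposited, with labelled mutants included, it was above noise on 12 of 22 liver and 19 of 24 thymus arrays. The spleen level lay 4.36 (SE 0.114) below brain on the log2 scale. Cldn11 encodes the claudin of the tight junctions in myelin. It had 7310 ± 782 in brain and was above noise in 0 of 10 wild-type liver arrays, a difference of at least 1366-fold (joint fit, adjusted p = 4.69e-64). In thymus Cldn11 was above noise on 10 of 12 wild-type arrays with 23.0 ± 16.9, and the arrays ran from 2.72 to 57.6. In spleen it was above noise on 1 of 12.

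Mal encodes a proteolipid of lipid-rich membrane domains, and T cells are known to express it too. Its 2 probes had 248 ± 97.3 (ILMN_1224029) and 518 ± 193 (ILMN_1248947) in brain. In thymus these were above noise on 1 and 3 of 12 wild-type arrays, and brain minus thymus was 3.85 and 4.77. Ugt8a encodes the enzyme that adds galactose to ceramide, the step that makes galactosylceramide. It had 449 ± 69.3 in brain and was above noise on 3 of 10 liver, 2 of 12 spleen and 3 of 12 thymus arrays.

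Olig2, the lineage transcription factor, was dim everywhere. As deposited its brain values ran from 2.38 to 26.7 with a median of 11.04, and 20 of 24 brain arrays were above noise. On the joint scale 6 of 12 wild-type brain arrays were above noise, and brain overlapped every other tissue. Brain minus liver, spleen and thymus was 0.23, 0.26 and 0.25, all past the threshold (adjusted p = 0.0151, 0.00372 and 0.00495).

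Of other oligodendrocyte and myelin genes, 44 were tested. Of these 31 were higher in brain than liver, 35 than spleen and 36 than thymus, and 7, 3 and 3 were lower. Of the myelin lipid enzymes beside Ugt8a, 2 of 6 were higher and 3 of 6 lower in brain than in liver. Of the oligodendrocyte transcription factors beside Olig2, 5 of 6 were higher and 0 of 6 lower in brain than in each other tissue. For peripheral myelin and Schwann cells, 6 genes were tested, of which 3 were higher in brain than liver and 2 higher than spleen and thymus.

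Brain arrays were next compared with each other. Wild types of the lines differed for several members on the joint scale. Mbp probe ILMN_3081854 had 1180 ± 197 in wild-type brain of the Hmgn1 line, 695 ± 135 in the Hmgn3 line and 278 ± 96.6 in the Hmgn5 line (n = 4 each). These groups did not overlap, since their ranges were 889 to 1314, 572 to 816 and 211 to 420. Mog probe ILMN_1259536 had 616 ± 30.6, 366 ± 37.3 and 366 ± 26.6 in the same order, and Mag 2451 ± 118, 1589 ± 57.7 and 1512 ± 181. In both, the Hmgn1 line stood above the other lines, which overlapped. Probes of 1 gene did not keep this order. Mal probe ILMN_1224029 was highest in the Hmgn1 line, with 367 ± 41.3 against 159 ± 45.0 and 217 ± 15.9. Mal probe ILMN_1248947 was highest in the Hmgn3 line, with 749 ± 152 against 403 ± 70.8 and 401 ± 38.3. The line and the set in which arrays were normalized cannot be told apart, so each line is compared only with its own wild types.

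The probes of a gene also differed in spread. After group means were removed, the SD between arrays was 0.52 on the log2 scale for Mbp ILMN_3081854, against 0.11 for Mbp ILMN_2737200 and 0.12 for Mbp ILMN_3011353. Of 1335 probes within 0.5 log2 of its mean level, 99.6% had a smaller SD than Mbp ILMN_3081854. Mobp ILMN_3097381 had 0.30 and Mal ILMN_1224029 0.28 (0.23 without the fourth labelled Hmgn3 mutant), while the other Mobp probes had 0.13 each and the other Mal probe 0.21. Cldn11 had the smallest SD of the members, 0.08, and Mag had 0.12. Among probes within 0.5 log2 of their level, 34.1% had a smaller SD than Cldn11, 34.1% than Mbp ILMN_2737200 and 55.5% than Mag. The same share was 94.1% for Mobp ILMN_3097381 and 91.5% for Mal ILMN_1224029. The median SD over all 19196 tested probes, dim ones included, was 0.22.

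In brain of the Hmgn1 line no member was called. By limma, 0 of 14 probes passed an adjusted p of 0.05, with 0% of all probes called. At an unadjusted p under 0.05 there were 0 of 14 members and 743 of all probes (3.87%). The median change of the members was -0.06 and that of all probes -0.003. The 2 largest changes were those of Olig2 and of Mbp ILMN_3081854. Mbp ILMN_3081854 had 2365, 1710, 2275 and 2403 in wild types and 1938, 2257, 2031 and 1397 in labelled mutants. The groups overlapped, with the lowest value on labelled mutant 4. The change was -0.21 (SE 0.335, 95% interval -0.90 to 0.49, adjusted p = 1), and it was -0.07 without labelled mutant 4 and -0.32 without wild type 2. Olig2 had 13.4, 5.53, 15.9 and 16.6 in wild types and 24.9, 14.8, 8.65 and 26.7 in labelled mutants, which overlapped. Mbp ILMN_2737200 had 17817, 18866, 19316 and 17559 in wild types and 16581, 17654, 15973 and 17266 in labelled mutants. The groups overlapped, and the change was -0.12 (SE 0.0879). Cldn11 had 10441, 10125, 10336 and 10525 in wild types and 10572, 10763, 10593 and 10612 in labelled mutants. All labelled mutants lay above all wild types, by a change of 0.04 (SE 0.0777, adjusted p = 1). This SE is pooled over all brain groups. Cldn11 deviated from group means by -0.032 to 0.023 in this line and by -0.15 to 0.14 in the Hmgn3 line. Cldn11 was 1 of 14 members whose groups did not overlap in this line, and 4.09% of all probes had this pattern. The mean log2 level of 5 cerebellar genes was 9.50 to 9.66 in wild types and 9.74 to 9.93 in labelled mutants, and its part in these values was not tested.

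In brain of the Hmgn3 line again 0 of 14 probes were called by limma, with 0.0104% of all probes called. At an unadjusted p under 0.05 there was 1 of 14 members and 2046 of all probes (10.7%). The median change was -0.03, and that of all probes -0.02. Mobp probe ILMN_1223628 had 915, 1014, 929 and 966 in wild types and 947, 1320, 1057 and 1287 in labelled mutants. Labelled mutant 1 lay within the wild types and the other labelled mutants above them. The change was 0.25 (SE 0.101, adjusted p = 0.38) and 0.20 without the fourth array. The other Mobp probes changed by -0.07 and 0.01, and by -0.14 and 0.12 without that array. Mog probe ILMN_1259536 had 599, 632, 674 and 537 in wild types and 634, 619, 600 and 419 in labelled mutants, where the fourth array was the lowest. Its change was -0.11 (SE 0.116), and 0.02 without that array. Mog probe ILMN_2615034 had 498, 543, 583 and 422 in wild types and 491, 451, 513 and 312 in labelled mutants. The fourth array was again the lowest and the groups overlapped. Its change was -0.22 (SE 0.129, adjusted p = 0.568), the lowest of any member in this line, and -0.07 without that array and -0.0065 with array weights. Mbp ILMN_3081854 changed by -0.15, and by 0.11 without the fourth array, and Mal ILMN_1224029 by -0.06, and by 0.16 without it. Mbp ILMN_3011353 changed by 0.13, and by 0.03 without it. Mbp ILMN_2737200, Mal ILMN_1248947 and Cldn11 changed by -0.02, -0.03 and 0.02, and by -0.04, -0.03 and 0.07 without it. The median change without that array was 0.04. Members whose groups did not overlap numbered 0 of 14, with 3.37% of all probes.

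In brain of the Hmgn5 line, 0 of 14 probes were called by limma, with 0.0208% of all probes called. At an unadjusted p under 0.05 there were 3 of 14 members, 1 probe each of Mbp, Mobp and Mog, and 1718 of all probes (8.95%). The median change of the members was 0.01, as for all probes. Mbp probe ILMN_3081854 had 533, 612, 506 and 949 in wild types and 617, 821, 2444 and 2040 in labelled mutants. Labelled mutants 3 and 4 lay far above every wild type and labelled mutants 1 and 2 within their range, so the groups overlapped. The change was 0.99 (SE 0.335, 95% interval 0.29 to 1.68, adjusted p = 0.466). This SE is pooled over all 6 brain groups. The labelled Hmgn5 mutants deviated from their mean by -1.01, -0.61, 0.94 and 0.68, so the interval understates the spread of this group. The change was 0.67 without labelled mutant 3, 0.76 without labelled mutant 4 and 1.33 without labelled mutant 1. The other Mbp probes changed by -0.02 (SE 0.0879) and -0.05 (SE 0.0946).

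Mobp probe ILMN_3097381 had 529, 605, 483 and 614 in wild types and 556, 562, 1085 and 1049 in labelled mutants. The same 2 labelled mutants were high. Its change was 0.47 (SE 0.202, adjusted p = 0.539), and it was 0.31 without labelled mutant 3, 0.32 without labelled mutant 4 and 0.26 with array weights, while the other Mobp probes changed by -0.04 and 0.04. Mog probe ILMN_1259536 had 831, 847, 784 and 912 in wild types and 959, 852, 1137 and 1110 in labelled mutants. Its change was 0.25 (SE 0.116, adjusted p = 0.552), and 0.22 (SE 0.129) at the other Mog probe. In the same arrays the mean log2 level of 9 neuronal genes was 12.53 to 12.63 in wild types and 12.46 to 12.53 in labelled mutants, with the highest labelled mutant just below the lowest wild type. That of 6 microglial genes was 7.94 to 8.02 and 7.74 to 7.94, and the groups overlapped. That of 10 astrocyte genes was 10.49 to 10.72 in wild types and 10.33 to 10.51 in labelled mutants, which overlapped, and 2 of 10 genes had a change above 0, with a median change of -0.11. That of 17 other mature oligodendrocyte genes was 8.66 to 8.77 in wild types and 8.78 to 8.91 in labelled mutants. All labelled mutants lay above all wild types there. There were 19 lists in 3 lines, and the share of them without overlap is not given, so these separations cannot be set against it. Of the mature oligodendrocyte genes 12 of 17 had a change above 0, with a median change of 0.10, and 0 were called. Of 9 compact and non-compact myelin proteins 6 had a change above 0, and the changes ran from -0.53 to 0.33. The other lists of myelin and oligodendrocyte genes overlapped, and 1 of 6 transcription factors beside Olig2 had a change above 0. The part of these lists in the member values was not tested. Members whose groups did not overlap numbered 0 of 14, with 4.63% of all probes.

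No member of the inner sheath, the lipid step or the lineage passed the threshold in brain. Mag had 4159 ± 186 in wild types and 3902 ± 471 in labelled mutants of the Hmgn1 line, a change of -0.10 (SE 0.0971), which was -0.02 without labelled mutant 4. It had 2375 ± 77.6 and 2581 ± 249 in the Hmgn3 line, a change of 0.11 that was 0.05 without the fourth labelled mutant, and 3024 ± 320 and 3278 ± 259 in the Hmgn5 line, a change of 0.12 (n = 4 in each group). All these groups overlapped. Ugt8a changed by -0.04, -0.10 and -0.02 (SE 0.127) in the Hmgn1, Hmgn3 and Hmgn5 line, with group means from 760 to 982. Without the fourth labelled mutant its change in the Hmgn3 line was 0.0056. Olig2 had 12.9 ± 5.09 in wild types and 18.8 ± 8.51 in labelled mutants of the Hmgn1 line, a change of 0.25 (SE 0.188), and changed by 0.03 (0.10 without the fourth labelled mutant) and 0.16 in the Hmgn3 and Hmgn5 line. Near the noise these Olig2 values depended on single arrays and on the floor. They ran from 0.12 to 0.41 in the Hmgn1 line and from -0.020 to 0.30 in the Hmgn5 line without any 1 array, and were 0.53 and 0.61 with values floored at 1. The Mal probes changed by -0.19 and -0.12 in the Hmgn5 line and by -0.14 and 0.01 in the Hmgn1 line. The lowest limma adjusted p of these genes in any line was 0.713.

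**Figure D2:**
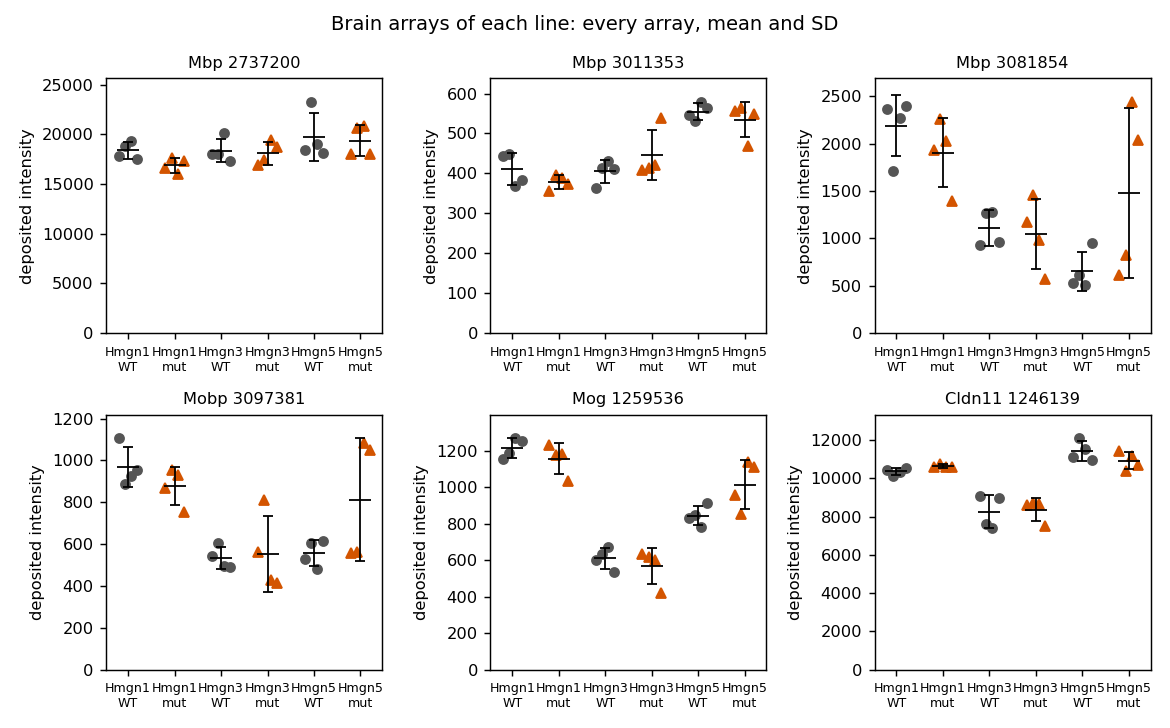
Deposited intensity of 6 member probes on each brain array, with wild types as grey circles and labelled mutants as orange triangles. Horizontal marks and bars are the mean and SD of 4 arrays. Mbp probe ILMN_3081854 and Mobp probe ILMN_3097381 spread most in the labelled Hmgn5 mutants, where 2 arrays are high, while Mbp probe ILMN_2737200 and Cldn11 vary little. Levels are not comparable between lines.

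**Figure D3:**
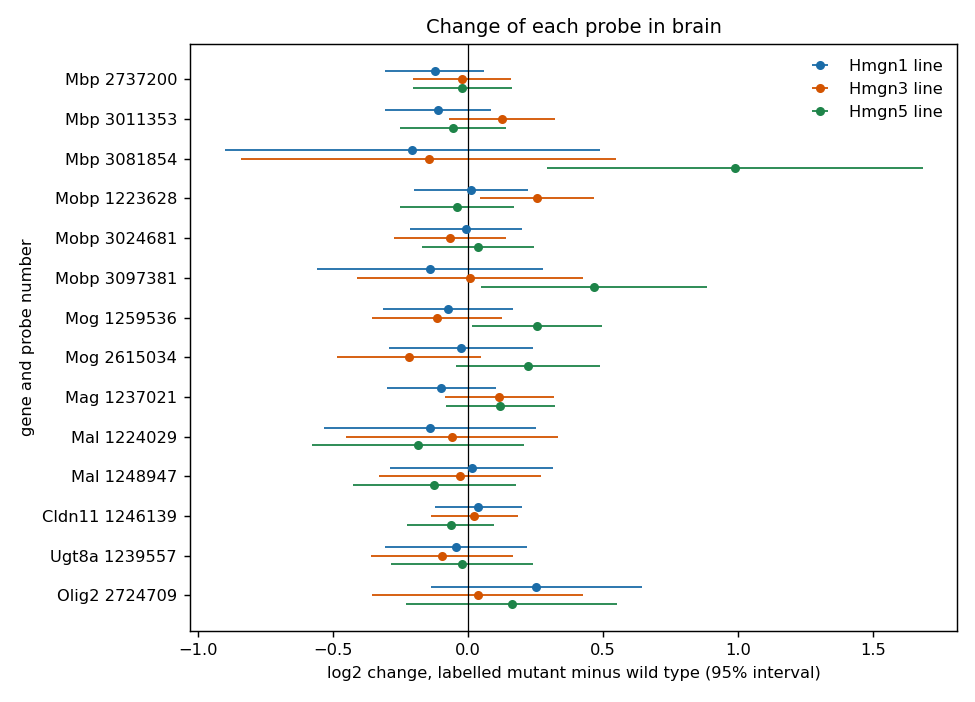
Log2 change of each probe in brain, labelled mutant minus wild type, with its 95% interval from limma, for the 3 lines. The intervals use the spread of a probe pooled over the brain groups. None of the 42 changes passes the adjusted threshold. The widest intervals belong to Mbp probe ILMN_3081854, whose change of 0.99 in the Hmgn5 line is the largest.

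The change did not differ between the lines for any member by a limma F test, where 0 of 14 probes passed and 0.00521% of all probes did. For Mbp ILMN_3081854 the changes were -0.21, -0.15 and 0.99 in the Hmgn1, Hmgn3 and Hmgn5 line (F test adjusted p = 0.492). The median SE of a member change was 0.12, and the SE ran from 0.0777 for Cldn11 to 0.335 for Mbp ILMN_3081854.

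The other myelin and oligodendrocyte genes gave 0 of 44 calls in each line. Their median change was -0.04, -0.06 and 0.04 in the Hmgn1, Hmgn3 and Hmgn5 line. Of the 44, 0, 3 and 4 had an unadjusted p under 0.05, as did 3.87%, 10.7% and 8.95% of all probes. Cnp, the cyclic nucleotide phosphodiesterase of myelin, changed by 0.36 in the Hmgn3 line (limma adjusted p = 0.325), by 0.20 there without the fourth labelled mutant, and by -0.04 and -0.05 in the Hmgn1 and Hmgn5 line. Apod, a lipid carrier made by oligodendrocytes and astrocytes, changed by 0.48 in the Hmgn5 line (adjusted p = 0.466), by -0.04 in the Hmgn1 and by -0.22 in the Hmgn3 line. Omg, Plekhb1 and Tspan2 changed by at most 0.14 in either direction in any line. Of the lipid enzymes, Fa2h, which hydroxylates the fatty acids of galactosylceramide, changed by 0.04, -0.07 and -0.19, and Gal3st1, which makes sulfatide, by -0.17, -0.10 and 0.16. Of the lineage factors, Olig1, a relative of Olig2 with a mean intensity of 6049 over the brain arrays as deposited, changed by 0.05, -0.11 and 0.01. Pdgfra, the receptor that marks oligodendrocyte precursors, changed by 0.08, 0.20 and -0.05, and Gpr17, a receptor of cells that are about to mature, by -0.20, -0.19 and 0.003. None of these passed the threshold. Without the fourth labelled mutant the median of the 44 changes in the Hmgn3 line was -0.03, and Fa2h turned to 0.11, Tspan2 to 0.13 and Gal3st1 went to -0.30.

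Outside brain, fewer members could be tested. Of the 14 probes, 4 were tested in liver, 10 in spleen and 10 in thymus, and 0 were called in any line there. The share of all probes called was 0.0318%, 0% and 0.42% in liver of the Hmgn1, Hmgn3 and Hmgn5 line, 3.09%, 2.11% and 0.902% in spleen and 0.0494%, 0.011% and 0.0934% in thymus. Over these probes in the 3 lines, those at an unadjusted p under 0.05 were Mag in liver of the Hmgn1 line and Mobp ILMN_3024681 and Cldn11 in thymus of the Hmgn5 line. Mag was above noise on 12 of 22 liver arrays. Mobp ILMN_3024681 was above noise on only 5 of 24 thymus arrays, with a median of 0.61, and Cldn11 on 18 of 24, with a median of 8.81. The share of all probes at that unadjusted p is not given outside brain, so the number of such members cannot be set against it. Cldn11 in thymus had 26.0 ± 13.5 in wild types and 12.1 ± 6.49 in labelled mutants of the Hmgn5 line, a change of -0.55 (SE 0.234, adjusted p = 0.451). Mag in spleen, the clearest non-brain level of that gene, had 15.97 ± 1.63 in wild types and 20.7 ± 2.20 in labelled mutants of the Hmgn3 line, a change of 0.20 (SE 0.0977, adjusted p = 0.336).

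The members did not rise and fall as 1 block over the brain arrays. For each of 91 pairs of probes, Pearson's r of the deviations from group means was taken over 24 arrays, as a description. These arrays share the normalization within a line and tissue, and the fourth labelled Hmgn3 mutant is among them. The median r was 0.08, 9 pairs were above 0.5 and 37 below 0. Both Mog probes went together (r = 0.89, and 0.80 without the fourth labelled Hmgn3 mutant). The 8 pairs of probes of the same gene had a median r of 0.20.

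One set of probes was led by Mbp ILMN_3081854. Its r was 0.88 with Mobp ILMN_3097381, 0.80 with Mog ILMN_1259536 and 0.71 with Mog ILMN_2615034. Without the fourth labelled Hmgn3 mutant these were 0.87, 0.78 and 0.65. Within the Hmgn1, Hmgn3 and Hmgn5 line the first of these was 0.83, 0.77 and 0.96 (8 arrays each). The place of Mag depended on the fourth labelled Hmgn3 mutant, since its r with Mbp ILMN_3081854 was 0.40 with that array and 0.67 without it, and 0.78, -0.60 and 0.79 within the lines. With Mog ILMN_1259536 the r of Mag was 0.12 with that array and 0.60 without it. A second set held Cldn11, with r of 0.73 to Ugt8a and 0.71 to Mal ILMN_1224029, and these were 0.64 and 0.59 without the fourth labelled Hmgn3 mutant. Within the Hmgn1, Hmgn3 and Hmgn5 line the first was -0.20, 0.98 and 0.31 and the second 0.84, 0.76 and 0.43. The sets were not separate. Mobp ILMN_3097381 had r of 0.61 with Mal ILMN_1224029, 0.56 without the fourth labelled Hmgn3 mutant, and 0.57, 0.76 and 0.64 within the lines. Its r with Mog ILMN_2615034 was 0.49, and 0.39 without that array. Mbp ILMN_3011353 ran against several members, with r of -0.64 to Mog ILMN_1259536 and -0.63 to Mal ILMN_1224029. Without the fourth labelled Hmgn3 mutant these were -0.36 and -0.38. For Mbp ILMN_3011353 and Mal ILMN_1248947 the r was -0.16, and 0.71, -0.33 and -0.78 within the Hmgn1, Hmgn3 and Hmgn5 line.

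**Figure D4:**
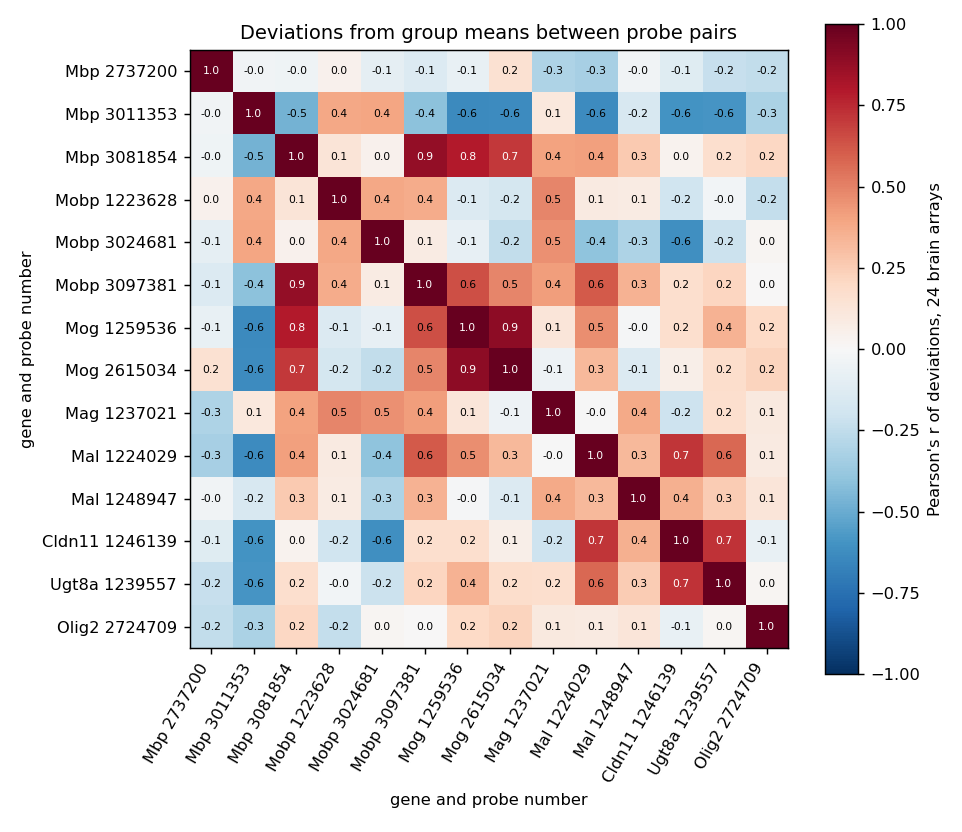
Pearson's r between the deviations of each pair of member probes from their group means, over 24 brain arrays. Red is positive and blue negative. Mbp probe ILMN_3081854, Mobp probe ILMN_3097381 and both Mog probes form a red block, with r from 0.49 to 0.89. Mobp probe ILMN_3097381 is also red with Mal ILMN_1224029 (0.61). Mbp probe ILMN_3011353 is blue against Mog, Mal, Cldn11 and Ugt8a, but only faintly against Mal ILMN_1248947 (-0.16).

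**Figure D5:**
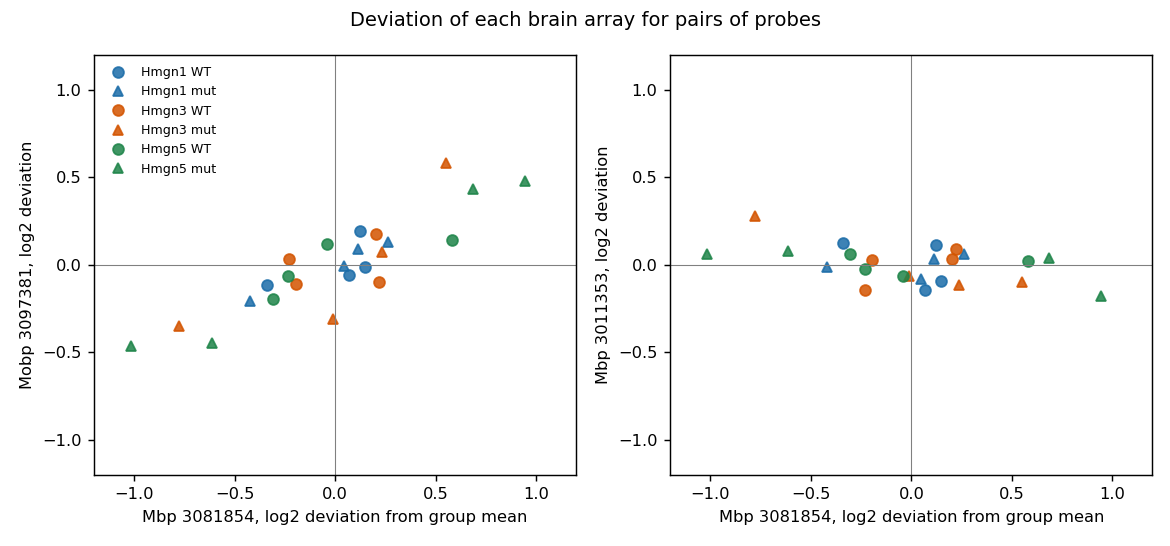
Log2 deviation of each brain array from its group mean for Mbp probe ILMN_3081854 (horizontal axis) against Mobp probe ILMN_3097381 (left) and Mbp probe ILMN_3011353 (right). Colours are lines, circles wild types and triangles labelled mutants. The left points follow a rising line with r of 0.88, while the right points, from another probe of the same gene, do not rise together.

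Some of these deviations were shared with many other probes. Of 19195 other probes tested in brain, 4.31% had an r above 0.7 in size with Mbp ILMN_3081854, 609 of them positive and 219 negative. The share was 8.81% for Mal ILMN_1224029 and 4.91% for Mog ILMN_1259536, but 0.0469% for Mbp ILMN_2737200, 0.0625% for Olig2 and 0.141% for Mag. The median of this share over all 19196 probes was 0.359%, and 10% of probes had a share of 7.60% or more. Without the fourth labelled Hmgn3 mutant the share was 4.79% for Mbp ILMN_3081854, 1.84% for Mal ILMN_1224029 and 2.30% for Mog ILMN_1259536. The median was then 0.219%, and 10% of probes had a share of 2.74% or more. Mbp ILMN_3081854 lay above that mark there but below it with all arrays, and Mal ILMN_1224029 the reverse. For Mobp ILMN_3097381 the share was 3.07% with all arrays and 3.68% without the fourth labelled Hmgn3 mutant. The 10 other genes most like the mean deviation of the 13 bright member probes were Marchf6, Eif3c, Rnmt, Slc25a36, Rap1gap, Fbxl5, Pgk1, Efr3a, Rbbp7 and Tspyl1, with r from 0.87 to 0.92 over 24 arrays and 0.84 to 0.91 without that array. None of these 10 is on the lists of myelin or oligodendrocyte genes used here. With 44 such genes tested and 16593 gene symbols on the array, that would hold for most sets of 10 genes. The mean member deviation of an array ran from -0.17, on the fourth labelled Hmgn3 mutant, to 0.18, on the second labelled Hmgn3 mutant.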

How the data were processed

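Trizol-extracted total RNA was made into biotinylated cRNA for the arrays, per the labels' protocols. Per the submitters' processing notes, GenomeStudio 2011.1 was among the tools. The deposited table holds intensity after background subtraction and normalization by the authors: 19.1 to 29.1% of them lie below 0, and quantiles are shared within a line and tissue only. How the authors normalized was not given in the sources used here. Another table, whose 188 columns match no label by name, was not used.

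Groups came from the labels, and mouse numbers gave the line of wild types, with the third wild type of the Hmgn5 line placed by elimination. Without its brain array Mbp ILMN_3081854 changed by 0.88 in that line (limma adjusted p = 0.604). Replicates are separate mice. Genes came from the platform table (23978 probes with 1 symbol, 1719 with none). Negative values were raised to 0, and tests ran on log2(intensity + 16). Probes above noise on 3 or more arrays of a tissue were fitted with limma 3.58.1 in R 4.3.3, with 6 groups in 1 model, two-sided, Benjamini-Hochberg adjusted over all probes at 0.05. Tissues were compared after joint quantile normalization, averaged over lines, with the mouse as a random block (correlation 0.00675). In a simulation of the brain arrays, 200 bright probes out of 19196 were changed in the labelled Hmgn1 mutants. Noise was drawn apart for each probe, so no shift was shared by the probes of an array. There 74% of changes of 0.5 and 98% of changes of 1 were recovered, and 11 of 183 calls were false. Many true changes ease the adjusted threshold, and the fits of the data called 0, 2 and 4 probes in brain. These shares therefore do not give the recovery for the members. The alternatives are given in the closing section.

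The members and the 19 gene lists were chosen with earlier results of these data known. Named genes are all members, the targeted genes, up to 4 genes of highest brain intensity per list, and the 10 genes whose brain deviations were most like the mean of the members. Lists used but not described above, those of endothelium, striatum, choroid plexus, hypothalamic hormones, brainstem and spinal cord, T cells, B cells and hepatocytes, had 0 genes called in brain of any line.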

Additional observations from a re-analysis of the deposited data

Results flagged for a closer look

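In 117 groups of 4 arrays with a member probe above noise, 6 held 1 array far from the other 3, by Dixon's gap test at its 95% critical value. Chance flags about 1 in 20 groups. The fourth labelled Hmgn3 mutant was that array for 3 probes in brain. Mbp ILMN_3011353 was high there, at 539 against 407 to 421. Mog ILMN_1259536 was low, at 419 against 600 to 634, and Cldn11 was low, at 7502 against 8617 to 8693. In brain of the labelled Hmgn5 mutants, Mbp ILMN_3011353 was low on the third array, at 468 against 549 to 565, and Mal ILMN_1224029 on the second, at 369 against 478 to 492. In thymus of the Hmgn1 line, Cldn11 was high on the third wild-type array, at 23.8 against 8.26 to 9.68.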

How the results depend on the processing

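No member call between labelled mutants and wild types depended on the settings run. In brain 0 of 14 probes were called in each line with values floored at 1, without a filter on dim probes, with a stricter filter, with array weights, with the 24 brain arrays normalized together, with only the 8 arrays of the line, and without any 1 array. The count that differed between lines and the counts called in liver, spleen and thymus stayed at 0 in all settings run. The median member change ran from -0.09 to -0.0069 in the Hmgn1, -0.08 to 0.04 in the Hmgn3 and 0.00048 to 0.04 in the Hmgn5 line without any 1 array. Members higher in brain numbered 14 against liver and 13 or 14 against spleen and thymus. With values as deposited, brain minus spleen and brain minus thymus of Mbp ILMN_3011353 turned from lower to higher, at 1.61 and 0.63 (adjusted p = 2.90e-37 and 1.68e-14), and both calls reversed. The median of all probes shifted by 0.79 and 0.57 on that scale, less than this probe, and the cause of the rest was not tested. With array weights the change turned to 0.016 for Mobp ILMN_3024681 in the Hmgn1 line, and to 0.056 for Mbp ILMN_3081854 and 0.042 for Mog ILMN_1259536 in the Hmgn3 line. The change of Mbp ILMN_3081854 in the Hmgn5 line was 0.64 with array weights and 1.33 without labelled mutant 1, where its adjusted p of 0.0608 was the lowest of any member in any setting.

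With the replicate number as a block, 0 of 14 probes were called in brain of each line and 0 in the other tissues. Between arrays of a line with the same number, the correlation of deviations ran from -0.25 to 0.14. Such a correlation over all probes cannot show whether these arrays shared anything beyond the number.

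Small changes turned sign when 1 array was left out, and 0 of these were called. In the Hmgn1 line the change ran from -0.038 to 0.045 for Mobp ILMN_3024681, -0.024 to 0.055 for Mobp ILMN_1223628, -0.067 to 0.0095 for Mog ILMN_2615034, -0.10 to 0.085 for Mal ILMN_1248947 and -0.10 to 0.046 for Ugt8a ILMN_1239557. In the Hmgn3 line the change ran from -0.26 to 0.16 for Mal ILMN_1224029, -0.14 to 0.057 for Mal ILMN_1248947, -0.027 to 0.10 for Olig2 ILMN_2724709, -0.15 to 0.0079 for Mobp ILMN_3024681, -0.028 to 0.074 for Cldn11 ILMN_1246139, -0.057 to 0.022 for Mbp ILMN_2737200, -0.19 to 0.12 for Mobp ILMN_3097381, -0.33 to 0.11 for Mbp ILMN_3081854, -0.17 to 0.021 for Mog ILMN_1259536 and -0.19 to 0.0056 for Ugt8a ILMN_1239557. In the Hmgn5 line the change ran from -0.083 to 0.013 for Ugt8a ILMN_1239557, -0.059 to 0.061 for Mbp ILMN_2737200, -0.11 to 0.0053 for Mobp ILMN_1223628, -0.020 to 0.30 for Olig2 ILMN_2724709 and -0.081 to 0.0062 for Mbp ILMN_3011353. The number of arrays limited the precision, and dim probes outside brain were limited by the noise.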
